A study of Mus musculus with 6 samples.

Results

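The genes described are those of the proteasome, the protease complex that degrades ubiquitin-tagged proteins in the cytosol and nucleus. They were taken by name, as every protein-coding gene whose symbol begins with Psm, a letter from a to g and a digit. The rule gave 50 of the 55487 genes in the deposited count table, and Psmb8, Psmb9 and Psmb10 among them form the immune subgroup of 3. One match, Psmc3ip, encodes a factor of meiotic recombination and is no part of the proteasome. The promoter search below drew on all 50. Elsewhere Psmc3ip is kept apart, which leaves 49 genes. Of these, 47 had enough counts to be tested. Psma8, a testis form of an alpha subunit, had 0 to 8 counts per library and Psmb11, the thymus catalytic subunit, 1 to 36 counts, and these were not tested.

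The study compared RNA of MIN6, a cell line from mouse that secretes insulin and is labelled as pancreatic beta cells, after transient lipofection. The PTHrP group had received full-length parathyroid hormone-related protein, and the DsRed group an empty vector with the red fluorescent protein DsRed. Both groups were confluent cultures in 6-well plates, treated with Lipofectamine 2000 and collected at most 3 days later, with 3 libraries each. The share of cells that took up DNA is not given in the labels, and no untransfected library was analysed here. Nothing in the labels says that replicates came from separate cultures, so p-values reflect no more than the scatter among these samples, which may be technical. In bulk RNA, fewer cells of a kind and less RNA per cell cannot be told apart.

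The libraries held 84427033 to 94613684 counts, and 21141 genes were tested. Pthlh, which encodes PTHrP, was counted 697, 553 and 797 times after PTHrP transfection and 0, 4 and 8 times after DsRed. The 8 beta cell markers summed to 47919 to 54624 CPM (counts scaled to library size, with factors from the trimmed mean of M-values, TMM) in PTHrP and 49155 to 61111 CPM in DsRed. The 5 leukocyte markers summed to 2.37 to 3.19 CPM in PTHrP and 3.15 to 3.63 CPM in DsRed, and none of the 5 was at 0 in all libraries. The 5 fibroblast and endothelial markers summed to 4.97 to 5.83 CPM and 4.70 to 7.01 CPM in turn. Of the 4 hormone genes of other islet cells, Gcg stood at 159 CPM in PTHrP against 148 CPM in DsRed, and Sst, Ppy and Ghrl had under 1 CPM. PTHrP replicate 2 stood apart from the other libraries in several of the results below, and the value without it is given where it moves a log2 fold change of at least 0.05 by over 1.5 times.

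The proteasome is built from a barrel, the 20S core, whose outer rings are made of alpha subunits and whose inner rings are made of beta subunits, 3 of which cut proteins. A cap, the 19S particle, binds and unfolds ubiquitin-tagged proteins with ATPases and removes the ubiquitin in its lid. In cells exposed to interferon, the immune subunits Psmb8, Psmb9 and Psmb10 take the places of Psmb5, Psmb6 and Psmb7 in newly built cores, which changes the peptides made for class I antigen presentation. Transcription of the constitutive subunits rises through the factor NRF1 (Nfe2l1) when proteasome activity is short. Proteins rejected by the endoplasmic reticulum, in beta cells largely misfolded proinsulin, are degraded by this complex.

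Promoter windows of RefSeq (GRCm38.p6), from 250 bases before to 50 after the start of transcription, were found for 42 of the 50 genes. The others were not searched, so a gene not named for a motif may lack the motif or the window. The antioxidant response element core TGACNNNGC, through which NRF1 acts, was in 6 of the 42 windows on either strand (14.3%), against 12.4% of 27025 windows of all genes. The 6 were those of Psmb5, Psmb6, Psmc6, Psmd9, Psmd12 and Psme4. The interferon-stimulated response element core, GAAA followed by any 2 bases and GAAA again, was in 5 windows (11.9%, against 3.49% of all), those of Psmb3, Psmd4, Psmd9, Psme1 and Psmg4. The gamma-activated site core TTCNNNGAA was in 3 (7.14%, against 8.42%), those of Psmb8, Psmd2 and Psmg1. Matches to different motifs did not overlap.

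The stretches below are shown because they belong to the catalytic pair with the largest difference in ratio between the groups (Psmb5 and Psmb8) and to the assembly chaperones with the largest positive fold changes (Psmg3 and Psmd9). They run 5′ to 3′ on the gene's strand, with matches to the 3 motifs in capitals. Except in Psmb8 they exclude the exon bases that GENCODE M21 gives the same gene, and exons of other genes were not checked. The Psmb5 stretch is chr14:54618023-54618245 on the minus strand, that of Psmd9 chr5:123227940-123228189 on the plus strand and that of Psmg3 chr5:139826895-139827144 on the minus strand. For Psmb8, whose whole window lies in an annotated exon, only the match with 10 bases on each side is given, chr17:34198088-34198116 on the plus strand.
Psmb5: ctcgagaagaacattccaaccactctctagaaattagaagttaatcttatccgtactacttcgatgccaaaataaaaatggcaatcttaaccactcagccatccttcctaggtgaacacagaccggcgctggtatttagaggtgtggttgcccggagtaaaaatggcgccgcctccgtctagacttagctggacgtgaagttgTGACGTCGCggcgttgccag
Psmd9: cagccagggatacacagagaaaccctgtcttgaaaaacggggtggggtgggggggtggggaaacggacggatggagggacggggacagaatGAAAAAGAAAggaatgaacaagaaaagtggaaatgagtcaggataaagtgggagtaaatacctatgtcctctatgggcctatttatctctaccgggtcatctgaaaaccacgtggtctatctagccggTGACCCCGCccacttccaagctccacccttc
Psmg3: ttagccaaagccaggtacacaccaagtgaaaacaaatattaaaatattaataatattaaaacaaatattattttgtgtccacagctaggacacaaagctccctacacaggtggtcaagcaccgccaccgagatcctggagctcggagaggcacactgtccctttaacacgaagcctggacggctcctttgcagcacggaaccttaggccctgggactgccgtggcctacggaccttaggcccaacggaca
Psmb8: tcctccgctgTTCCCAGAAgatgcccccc
The Psmb5 match, an antioxidant response element core, lies at bases -47 to -39 from the RefSeq start. Psmd9 has an interferon-stimulated core at -159 to -150 and an antioxidant core at -31 to -23. The Psmb8 match is a gamma-activated core at -97 to -89, and the Psmg3 window held none of the 3 motifs. The RefSeq start of Psmd9 lies inside the longer gene that GENCODE annotates on chromosome 5 from 123169413 to 123250131.

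Levels between genes were compared as TMM-scaled CPM per kilobase of annotated exon (CPM per kb), over the 6 libraries. By this length the most abundant was Psmd2, the large scaffold subunit of the 19S base, at 164 CPM per kb (157 to 172 over the libraries). Psmb4 (151 CPM per kb) and Psmb2 (147 CPM per kb), non-catalytic beta subunits, came next, and their ranges over libraries overlapped. The 14 constitutive 20S subunits spanned a 6.90-fold range of level per kb, from Psmb4 down to the catalytic subunit Psmb7 at 21.9 CPM per kb, although they enter the particle in equal numbers. With the longest transcript as the length the span was 9.91-fold, from Psmb6 at 260 CPM per kb to Psmb7. Psmd2 was then below Psmb6, so the order of single genes depends on the annotation. The 6 ATPases lay between 37.6 CPM per kb for Psmc6 and 134 CPM per kb for Psmc5. The 8 lid subunits lay between 15.7 CPM per kb for Psmd11 and 64.7 CPM per kb for Psmd13. The assembly chaperones, which help build the particle and leave it, ran from 2.44 CPM per kb for Psmg3 to 22.8 CPM per kb for Psmg2.

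The immune subunits were among the scarcest transcripts. Psmb10 had 8.66 CPM per kb (7.11 to 10.4), Psmb9 4.39 CPM per kb (4.004 to 5.18) and Psmb8 3.56 CPM per kb (2.58 to 4.08). The ranges of Psmb9 and Psmb8 overlapped, and that of Psmb10 lay above both. Their constitutive counterparts had 134 CPM per kb for Psmb6, 118 CPM per kb for Psmb5 and 21.9 CPM per kb for Psmb7. In each library every immune subunit was below its counterpart per kb.

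**Figure D1:**
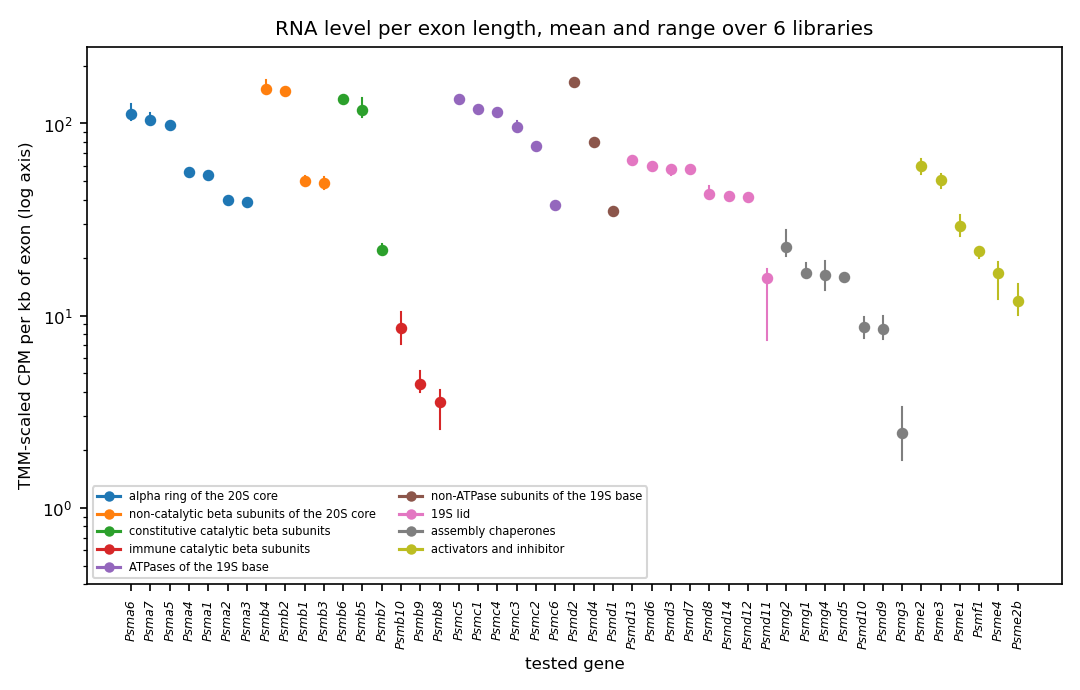
RNA level of the 47 tested proteasome genes as TMM-scaled CPM per kb of exon (log axis), grouped by role. Points are means and lines the range over the 6 libraries; the immune subunits lie between 3.56 and 8.66 CPM per kb, and the line of Psmd11 reaches down to 7.45 CPM per kb in PTHrP replicate 2.

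Between PTHrP and DsRed no proteasome gene passed the test. The count was 0 of 47 at an adjusted p of 0.05 (edgeR quasi-likelihood test, Benjamini-Hochberg over all tested genes), where 0.0426% of all tested genes passed (0.0189% higher, 0.0237% lower), and DESeq2 (background 0.643%) and limma-voom (background 0.0851%) also gave 0. At an unadjusted p of 0.05, 4 of the 47 lay under it in edgeR, Psmg3 and Psmd9 higher and Psme3 and Psmb10 lower, or 8.51% against a background of 8.9% (4.92% higher, 3.98% lower). Of the 9594 genes at least as abundant as the scarcest tested member, 13.2% lay under it. Under the same unadjusted p, DESeq2 had 5 of the 47 against 8.72% of all genes, and limma-voom 4 against 9.29%. PTHrP and DsRed values were fully apart for 10 genes of the 47 (8 higher, 2 lower), or 21.3%, where the background is 16.3% of all tested genes (8.45% higher, 7.88% lower) and 21.6% of the 9594 genes at least as abundant as the scarcest tested member. The median log2 fold change of the 47 was 0.04, against -0.01 over all tested genes, and 29 were positive. Without PTHrP replicate 2 that median was -0.01, with 22 positive. Psmc3ip, kept apart, had a log2 fold change of -0.05 (edgeR adjusted p = 0.910).

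The 31 tested subunits of the constitutive particle lay close to 0. For 29 of them the estimated fold change was within 10%, a share of 93.5%, against 48.7% of all tested genes and 82.1% of the 3407 genes at least as abundant as the scarcest of the 31. The 95% interval of the change lay between 20% lower and 25% higher for 30 of the 31, the exception being Psmd11. That held for 82.6% of those 3407 genes. These intervals use an approximate standard error (SE) from the same fit.

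**Figure D2:**
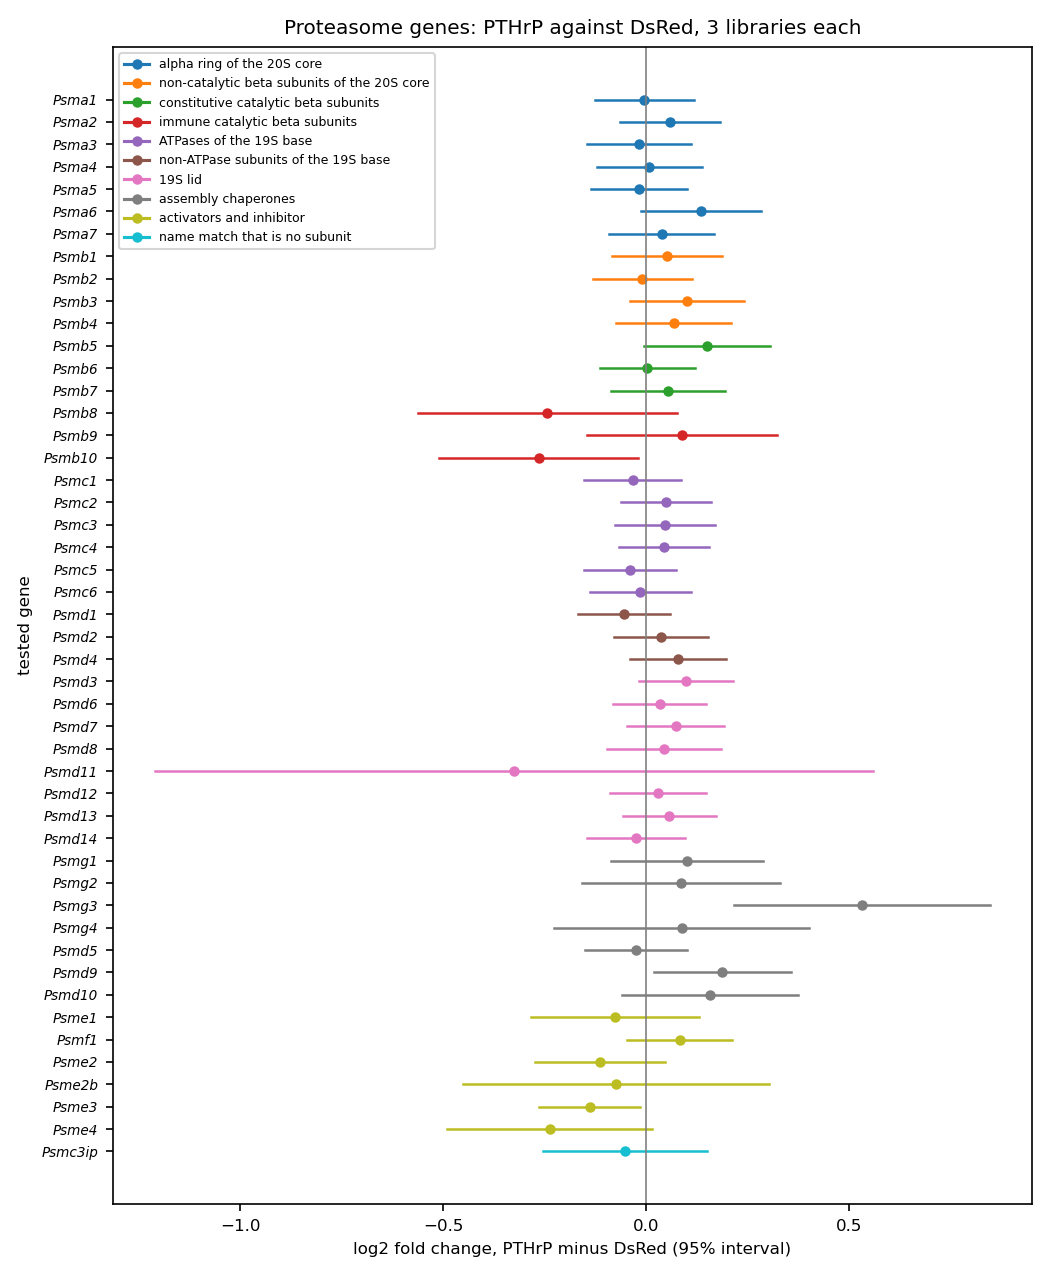
Log2 fold change, PTHrP minus DsRed, of the 48 tested genes that match the name rule, with 95% intervals, coloured by role. Most core and cap subunits have intervals between 20% lower and 25% higher; Psmd11 has the widest interval, and those of Psmg3, Psmd9, Psme3 and Psmb10 exclude 0 before adjustment over all genes.

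In the alpha ring, which gates the entry to the core, 7 genes were tested, 4 positive and 3 negative, with a median log2 fold change of 0.01. The highest was Psma6, with 133, 157 and 145 CPM in PTHrP and 129, 132 and 135 CPM in DsRed. The groups overlapped in the lowest PTHrP library, and the log2 fold change was 0.13 (SE 0.07, edgeR adjusted p = 0.600), or 0.08 without PTHrP replicate 2, its highest library. Psma5 was the lowest of the ring at -0.02. Among the 4 non-catalytic beta subunits 3 were positive, from Psmb2 at -0.01 to Psmb3 at 0.10 (0.15 without DsRed replicate 3), and the groups overlapped for all 4.

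Of the catalytic subunits, Psmb5, which carries the chymotrypsin-like activity, had 106, 123 and 107 CPM in PTHrP and 97, 100 and 105 CPM in DsRed. The groups did not overlap, by a margin of under 1 CPM between the lowest PTHrP and the highest DsRed library. The log2 fold change was 0.15 (SE 0.07, edgeR adjusted p = 0.571), and 0.08 without PTHrP replicate 2, the highest library. Psmb6, of the caspase-like site, had 242, 251 and 261 CPM in PTHrP and 249, 252 and 252 CPM in DsRed, so the DsRed values lay within the PTHrP range. Its log2 fold change was 0.00, with an interval of -0.11 to 0.12. Psmb7, of the trypsin-like site, had 72.5, 80.6 and 75.5 CPM against 72.2, 74.3 and 73.7 CPM, a log2 fold change of 0.05 with an interval of -0.09 to 0.19, and 0.01 without PTHrP replicate 2. Exons of Psmb7 share 405 bases with those of Nek6 on the opposite strand (30.3 CPM in PTHrP, 31.2 CPM in DsRed), whose reads cannot be told apart without strand.

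None of the 3 immune subunits passed the test, and their intervals overlapped. Psmb8, on chromosome 17 at 34197721 to 34201454, had 8.73, 13.8 and 10.6 CPM in PTHrP and 13.1, 13.0 and 13.1 CPM in DsRed. PTHrP replicates 1 and 3 were below all DsRed libraries, and replicate 2 was above them. The log2 fold change was -0.24 (SE 0.15, edgeR adjusted p = 0.671), -0.43 without PTHrP replicate 2 (adjusted p = 0.0888) and -0.10 without PTHrP replicate 1 (adjusted p = 0.869).

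Psmb10, on chromosome 8 at 105935735 to 105938444, had 12.1, 13.7 and 14.4 CPM in PTHrP and 17.8, 16.4 and 14.2 CPM in DsRed. Only DsRed replicate 3 lay within the PTHrP range. The log2 fold change was -0.27 (SE 0.11, edgeR unadjusted p = 0.0363, adjusted p = 0.518). Psmb9, on chromosome 17 at 34181987 to 34187764, had 15.1, 18.9 and 15.6 CPM in PTHrP and 16.0, 16.1 and 14.7 CPM in DsRed. The groups overlapped, with PTHrP replicate 2 highest. The log2 fold change of 0.09 (SE 0.11) became -0.02 without that library, a value near 0, and its sign turned in 1 of 16 alternatives. Psmb9 shares 212 exon bases with Tap1, the peptide transporter gene on the opposite strand, whose mean was 37.8 CPM in PTHrP against 37.6 CPM in DsRed.

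**Figure D3:**
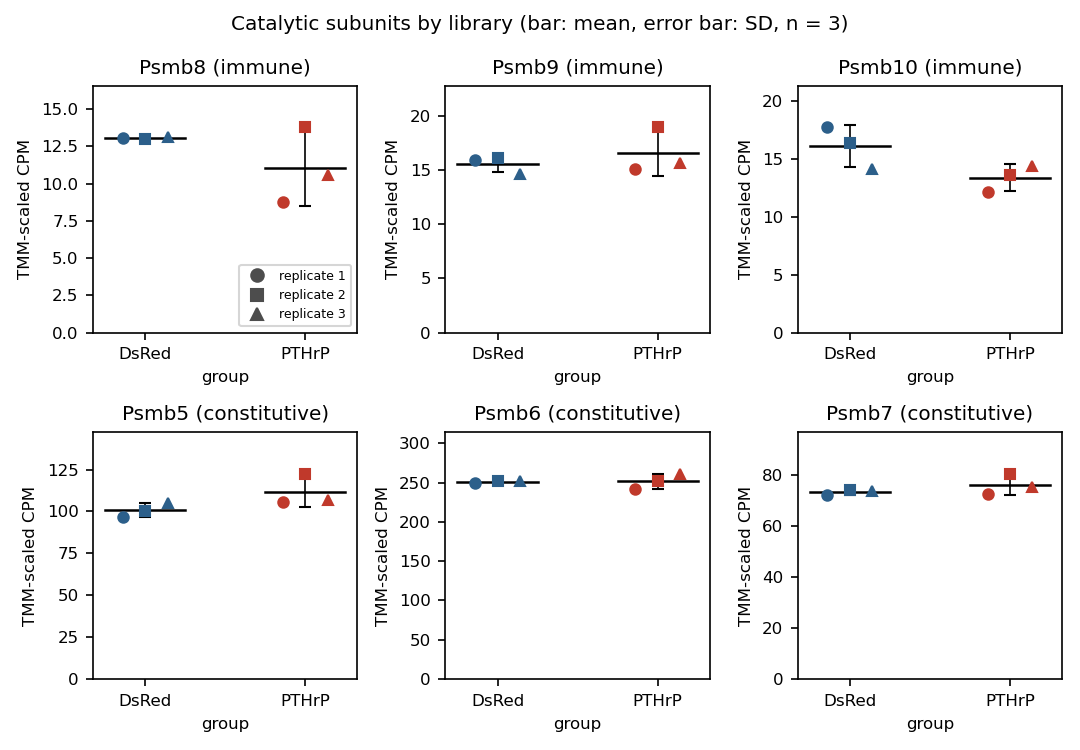
TMM-scaled CPM of the 3 immune subunits (upper row) and the constitutive subunits they replace (lower row) in each library, with the mean and SD of 3 libraries. Psmb8 in PTHrP spreads from 8.73 to 13.8 CPM while the DsRed libraries lie at 13.0 to 13.1 CPM, and Psmb6 hardly differs between the groups.

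Set against its counterpart within each library, Psmb8 was lower in PTHrP. The log2 ratio of Psmb8 to Psmb5 was -3.59, -3.15 and -3.34 in PTHrP, against -2.89, -2.95 and -3.00 in the controls, so the groups did not overlap. Psmb8 alone did overlap, and PTHrP replicate 2 was the highest library for both genes. Both entered the difference in ratio, with log2 fold changes of -0.24 for Psmb8 and 0.15 for Psmb5. PTHrP minus DsRed, the mean log2 ratio differed by -0.42 (95% interval -0.78 to -0.05). This interval, like those of the other pairs, assumes equal variance in both groups. The SD of the ratio was 0.22 in PTHrP and 0.055 in DsRed, so the interval may be too narrow. A two-sided exact permutation test gave p = 0.1, the lowest value that 3 libraries against 3 allow, and 0.15 after adjustment over the 3 pairs. Leaving out 1 library at a time gave -0.52 to -0.30.

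The log2 ratio of Psmb10 to Psmb7 was -2.58, -2.56 and -2.39 in PTHrP, against -2.02, -2.18 and -2.38 in the controls. DsRed replicate 3 and PTHrP replicate 3 differed by about 0.01, so the separation of the groups was narrow. That pair differed by -0.31 (interval -0.65 to 0.02, exact permutation p = 0.1, adjusted p = 0.15). For Psmb9 to Psmb6 the log2 ratio was -4.00, -3.73 and -4.06 in PTHrP, against -3.96, -3.97 and -4.10 in the controls, a difference of 0.08 with an interval of -0.23 to 0.39 (exact permutation p = 0.7, adjusted p = 0.7). Per kb the 3 immune subunits made up 4.90%, 5.54% and 5.34% of the RNA of the 6 catalytic subunits in PTHrP and 6.65%, 6.24% and 5.61% in the controls. DsRed replicate 3 and PTHrP replicate 2 lay next to each other in that share. The summed leukocyte markers given above were also lower in 2 of 3 PTHrP libraries than in any DsRed library. Of these markers Cd68 went the other way, with a mean of 1.44 CPM in PTHrP against 1.23 CPM in DsRed. The others had lower means in PTHrP, all under 1 CPM in both groups. The part of the leukocyte markers in the immune subunits was not tested.

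In the 19S base, the ATPases that unfold substrates were split, 3 positive and 3 negative of 6, from Psmc5 at -0.04 to Psmc2 at 0.05 on the log2 scale. The 3 other base subunits ran from Psmd1 at -0.06 to Psmd4, a receptor for ubiquitin chains, at 0.08. Of the 8 lid subunits 6 were positive, and the groups did not overlap for 3 of them, all higher in PTHrP. In that direction 8.45% of all tested genes were apart. So were 400 of the 3407 genes at least as abundant as the scarcest of the 31 constitutive subunits. The highest lid subunit was Psmd3, with 302, 297 and 297 CPM in PTHrP and 279, 290 and 268 CPM in DsRed. Its log2 fold change was 0.10 (SE 0.05, edgeR adjusted p = 0.626).

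Psmd11, a lid subunit that braces the cap on the core and whose supply is known to limit 26S assembly in stem cells, was low in a single library. It had 112, 47.6 and 107 CPM in PTHrP and 112, 111 and 111 CPM in DsRed. PTHrP replicate 2 thus had 0.431 of the mean of the other 5 libraries, from 4043 counts against 9621 to 10163 in the others. The log2 fold change was -0.33 (SE 0.34, edgeR adjusted p = 0.845), -0.02 without that library and -0.53 without PTHrP replicate 1. A ratio as low or lower was found in PTHrP replicate 2 for 32 of the 9594 genes at the members' level (0.334%), and in the other 5 libraries for 0 to 4 genes each. Psmd11 lies on chromosome 11 at 80428615 to 80473248. The 12 other genes of that level within 1000 kb had ratios of 0.607 to 1.30 in the same library, with a median of 0.892, so Psmd11 was below all of them.

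Of the 7 assembly chaperones 6 had positive fold changes, with a median of 0.10, and the groups did not overlap for 4, all higher in PTHrP. In that direction the same 8.45% of all tested genes were apart, and 1168 of the 9594 genes at the members' level. Psmg3, which pairs with Psmg4 to build the alpha ring, had the smallest p of the 47 genes. Its counts were 713, 602 and 916 in PTHrP and 506, 450 and 577 in DsRed, or 8.28, 7.08 and 9.62 CPM against 5.86, 5.14 and 6.31 CPM. All 3 PTHrP libraries lay above all 3 DsRed libraries. The log2 fold change was 0.53 (SE 0.14, edgeR unadjusted p = 0.0034, adjusted p = 0.338), a rise in the estimate of 44.5% with an interval of 16.0% to 79.8%. It passed without PTHrP replicate 2 (0.64, adjusted p = 0.0375), in a fit with no filter on low counts (0.54, adjusted p = 0.0280) and with library quality weights (0.68, limma-voom adjusted p = 0.0234). These were 3 of 16 alternatives, and over all 16 the adjusted p ran from 0.0234 to 0.949. The 3 fits also called more of all genes. With no filter 220 of 44413 passed and with quality weights 254 of 21141, against 9 of 21141 in the reported fit. The quality weights were added after the data were seen. Psmg3 lies on chromosome 5 at 139823592 to 139826885 and shares 280 exon bases on the same strand with Gm26938, which was listed at 0 CPM.

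Psmd9, which chaperones the ATPase ring and is also known as a coactivator of insulin transcription, had 61.7, 72.1 and 63.7 CPM in PTHrP and 54.8, 57.6 and 61.0 CPM in DsRed. The groups did not overlap, by a margin of under 1 CPM. The log2 fold change was 0.19 (SE 0.08, edgeR unadjusted p = 0.0325, adjusted p = 0.507), and 0.12 without PTHrP replicate 2, the highest library. Its exons share 1849 bases with the long non-coding gene Gm26745 on the opposite strand. Gm26745 has no counts of its own in these data, and its reads cannot be told apart from those of Psmd9 without strand. The lowest of the chaperones was Psmd5 at -0.03.

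The activators, alternative caps that open the core, lay mostly below 0. Of the 6 genes of the activators and the inhibitor 5 were negative, with a median of -0.10. The groups did not overlap for 2, both lower in PTHrP. In that direction 7.88% of all tested genes were apart, and 903 of the 9594 genes at the members' level. Psme3, the nuclear activator, had 147, 136 and 142 CPM in PTHrP and 155, 153 and 160 CPM in DsRed. All PTHrP libraries were below all DsRed libraries, with a log2 fold change of -0.14 (SE 0.06, edgeR unadjusted p = 0.0294, adjusted p = 0.496). Psme4, a large activator linked to histone degradation, on chromosome 11 at 30771726 to 30880361, had 144, 103 and 137 CPM in PTHrP and 149, 145 and 158 CPM in DsRed. The groups were apart by under 2 CPM, PTHrP replicate 2 was again the lowest, and the log2 fold change of -0.24 (SE 0.11, edgeR adjusted p = 0.584) was -0.10 without it.

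Psme2, which with Psme1 forms the interferon-inducible activator, had 96.2, 113 and 96.2 CPM in PTHrP and 108, 108 and 115 CPM in DsRed. PTHrP replicate 2 lay among the DsRed libraries, and the log2 fold change was -0.12 (SE 0.07, edgeR adjusted p = 0.688), or -0.19 without that library (adjusted p = 0.122). Psme2b is a near copy of Psme2, so counts of the pair are uncertain. The one positive gene was the inhibitor Psmf1 at 0.08, and 0.04 without DsRed replicate 3.

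**Figure D4:**
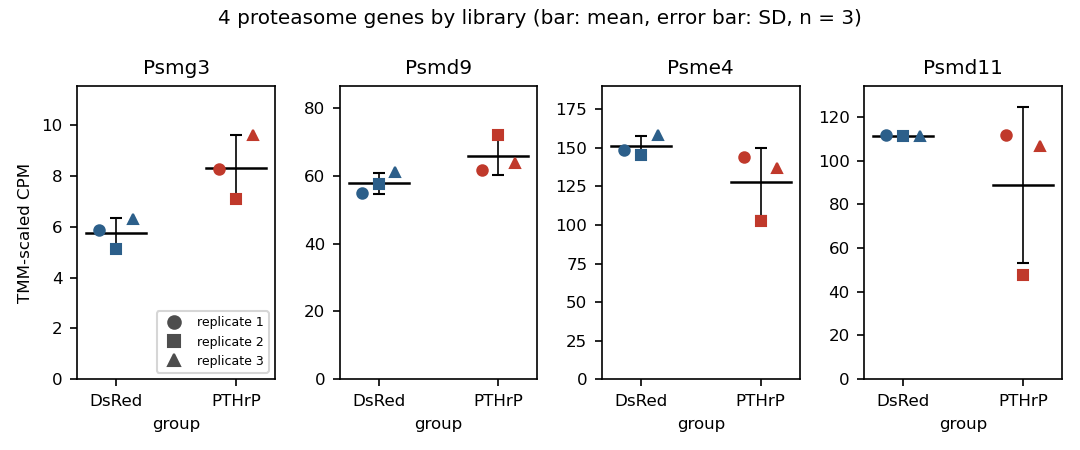
TMM-scaled CPM of Psmg3, Psmd9, Psme4 and Psmd11 in each library, with the mean and SD of 3 libraries. Psmg3 and Psmd9 are higher in all PTHrP libraries, and the low PTHrP means of Psme4 and Psmd11 come with 1 low library, replicate 2, at 103 and 47.6 CPM. The other PTHrP libraries of Psme4, at 144 and 137 CPM, also lie below all DsRed libraries, the nearest at 145 CPM. Those of Psmd11 lie at 112 and 107 CPM, beside 111 to 112 CPM in DsRed.

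PTHrP replicate 2 was the highest library for 23 of the 47 genes (48.9%) and the lowest for 4. It was the lowest for 4855 of all 21141 tested genes and for 3002 of the 9594 at the members' level. It was also the highest for 23.4% of all tested genes, and at the members' level for 41.5% of short genes and 20.5% of long ones, divided at 2808 bases of exon. Of the 24 short and 23 long members it was highest for 12 and 11, and of the 7 alpha subunits for 5. The division is the median exon length of the members. In the 2063 short genes at that level it was 0.07 above the gene's mean on the log2 scale, and in the 7528 long ones 0.04 below. The members lay 0.04 above their mean in it on both sides of that length. PTHrP replicate 1 was the lowest library for 16 of the 47, against 3849 of all 21141 tested genes and 1077 of the 9594 at the members' level. The part of these library differences in the results was not tested.

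Genes that work with the proteasome gave no call either. In a list of 38 measured genes, 0 passed in edgeR, DESeq2 and limma-voom, 2 (5.26%, against 8.9% of all tested genes) had an unadjusted p under 0.05, 15 were positive and the median log2 fold change was -0.03. Among the 9 remaining subunits, maturation factors and shuttle receptors, Ddi2, the protease that activates NRF1, averaged 33.6 CPM in PTHrP against 42.5 CPM in DsRed (log2 fold change -0.34, SE 0.13, edgeR adjusted p = 0.501). PTHrP replicate 2 was low at 25.5 CPM, and without it the log2 fold change was -0.17. Ddi2 passed in 1 of 16 alternatives, with no filter on low counts (-0.33, edgeR adjusted p = 0.0389), where 220 of 44413 genes passed. The shuttle factor Ubqln1 had -0.10. Of 8 proteasome-bound enzymes and cofactors, Akirin2, which carries proteasomes into the nucleus, had 0.18 (SE 0.07, edgeR adjusted p = 0.428) and the deubiquitinase Uchl5 -0.13. The NRF1 gene Nfe2l1 averaged 484 CPM in PTHrP against 463 CPM in DsRed (0.07 on the log2 scale, 0.03 to 0.11 when 1 library was left out, edgeR adjusted p = 0.791), and Ngly1, which removes sugars from NRF1, 0.02. Of 6 ubiquitin genes and activating enzymes Uba6 had -0.15 (-0.09 without DsRed replicate 3), and of the 3 genes of the p97 segregase Vcp had -0.08 and Nploc4 -0.07, or -0.04 and -0.03 without PTHrP replicate 2.

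The class I antigen genes that act beside the immunoproteasome did not pass. Of 9 measured, 3 were positive and 6 negative, with a median of -0.03. The groups overlapped for all 9, where 16.3% of all tested genes were apart. B2m, the light chain of class I molecules, averaged 50.8 CPM in PTHrP against 56.3 CPM in DsRed (log2 fold change -0.15, edgeR adjusted p = 0.624), and Nlrc5, a transactivator of class I genes, 2.11 CPM and 2.79 CPM (-0.40, adjusted p = 0.658). Without PTHrP replicate 1 B2m was at -0.08, and without DsRed replicate 1 Nlrc5 was at -0.17.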

How the data were processed

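RNA-seq libraries of 6 MIN6 samples were analysed as the deposited table of raw counts per gene. Per the submitters' processing notes, the tools were bcl2fastq, STAR and featureCounts 2.0.3 of Subread, and the genome build GRCm38. The sources used here do not state the annotation, the strand setting or the rule for multi-mapping reads, so overlapping genes and near copies are uncertain. After 287 repeated rows were dropped, 55487 genes remained. Every pair of libraries differed by more than sampling noise (chi-square per gene 9.08 to 68.6).

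All genes were filtered with filterByExpr and scaled by TMM, and 21141 were tested with the edgeR 4.0.16 quasi-likelihood F-test (R 4.3.3, robust, group term alone, two-sided, Benjamini-Hochberg, threshold 0.05). SE is the coefficient over the square root of F. Catalytic ratios are differences of log2 CPM with a prior count of 2. Scripts were tested on simulated counts. Alternatives were other scalings and filters, DESeq2 1.42.0, limma-voom 3.58.1, the replicate number as a term and each library left out. A length correction and library quality weights were added after the data were seen. Positions and exon lengths are from GENCODE M21 on GRCm38.

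The members and lists were chosen with earlier results of these data known. Named are the catalytic subunits, the 10 members with the smallest p, the highest and lowest fold change of each role, and 2 genes of each associated list with the smallest p. Members named for their level per kb or for a motif were chosen after their values were seen. Paaf1 was not analysed here, and 1 gene the rule names is not reported here.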

Additional observations from a re-analysis of the deposited data

How the results depend on the processing

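The count of 0 proteasome genes held under 13 of 16 alternatives and was 1 (Psmg3) with no filter, with library quality weights and without PTHrP replicate 2, so leaving out 1 library gave 0 to 1. Associated genes gave 0 except for 1 (Ddi2) with no filter. All genes past the threshold, 9 in the reported fit, numbered 14 with library sizes alone, 220 with no filter, 136 with DESeq2, 18 with limma-voom, 14 with the length correction and 254 with quality weights, and 2 to 213 when 1 library was left out, the highest without PTHrP replicate 2. The median log2 fold change of the 47 genes ran from -0.0076 to 0.038 when 1 library was left out. The cause of these changes was not tested. The span of level over the 14 constitutive core subunits was 9.91-fold by longest transcript.

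With the replicate number as a block, 0 proteasome genes and 7 genes in all passed, the median was 0.04, the exact sign permutation p was 0.25 for the pair of Psmb8 and Psmb5, the smallest possible, and no member's call changed. The labels do not say that the numbers pair samples: same-numbered libraries had correlations of 0.02, -0.11 and 0.02 in their deviations, and 2 of the 6 libraries correlated best with their own number.

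Of 36 named genes 28 kept sign and call under all 16 alternatives. Signs turned for values near 0. Psmb6 was -0.0049 with upper-quartile factors, -0.0069 with a minimum of 1 CPM in 3 libraries and -0.038 with the length correction, where Psmd5 was 0.0017. Psmb2 was 0.016 and Ngly1 -0.023 with quality weights. When 1 library was left out Psmb6 ran from -0.028 to 0.030, Psmb2 from -0.042 to 0.023, Psmb9 from -0.019 to 0.15, Psmc3ip from -0.12 to 0.016 and Ngly1 from -0.038 to 0.076. The ratio of Psmb9 to Psmb6 ran from -0.022 to 0.15.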
